A study of Mus musculus with 12 samples.

Results

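The genes described here are 39 interferon-stimulated and antigen processing genes, followed over the 12 arrays of a mouse 3T3-L1 experiment. They were chosen by gene symbol: each of the 39 symbols labels a probe set of the deposited signal sheet, and they make up 39 of 21367 probe sets with a single symbol. Type I and type II interferons signal through cell surface receptors and JAK kinases to STAT and IRF transcription factors, and these switch on a large set of genes, many of which restrict viruses. STAT2 and IRF9 belong to a complex that binds a promoter element of the type I response, and IRF1 drives many genes of class I antigen presentation. The same programme exchanges subunits of the proteasome and raises the transporters that load peptides onto MHC class I in most cell types, fibroblasts and fat cells included.

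3T3-L1 is an established mouse embryo fibroblast line widely used as a model of fat cell formation. Its cells were given SQ (squalene, a sterol precursor) or 1 of 4 ethylene glycol derivatives named mono-, di-, tri- and tetra-SQ, each at 5 µM for 14 days, and RNA was read on Clariom S arrays. Each compound and the control had 2 arrays, numbered 1 and 2 in the labels. The controls carry a label of no treatment and no induction at 14 days, whereas the protocol gives every culture IBMX, dexamethasone and insulin with or without compound, so it cannot be told from the labels whether the controls received the hormones. Nothing in the labels says that the arrays of a group came from separate cultures, so p-values measure only the spread between these arrays, which may be technical. In what follows, second compound arrays are the 5 arrays numbered 2 of the compounds (1 of each compound), first compound arrays are the 5 numbered 1, and array values are log2 signals given in the order SQ, mono-, di-, tri- and tetra-SQ.

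The second compound arrays stood apart from the other arrays. The 2 arrays of a compound correlated at 0.9677 to 0.979 across probe sets, and the 2 controls at 0.9974. Adipocyte markers (10 genes, among them Adipoq and Plin1) lay above the median of the negative control probe sets on all 12 arrays, although the labels call the cells preadipocytes. Their mean log2 signal was 11.87 to 12.35 on second compound arrays, 15.40 to 15.73 on first compound arrays and 15.44 to 15.47 on controls. The median of 5222 negative control probe sets, used here as the background level, averaged 6.57 on second compound arrays, 6.18 on first compound arrays and 6.27 on controls. Comparisons of the first arrays alone with the controls are given below beside those that use the second arrays. A signal is called at background where it lay at or below the negative control median of its array, read in the series' value table.

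Of the 39 genes, 32 had 1 or more promoter windows of 250 bases upstream of a start in RefSeq (GRCm38.p6), with more than 1 for Gbp3, Irf1, Irf9 and Ifit2. The letters GAAANNGAAA, a core of the element that IRF-containing complexes bind, were searched on both strands. They stood in a window of 9 of the 32 genes (28.1%), against 978 of 32851 windows of the same length over all genes (2.98%). The first share counts genes and the second counts windows, so they are not on the same unit. The 9 genes were B2m, Bst2, Gbp2, Gbp3, Ifit1, Ifit3, Isg15, Rsad2 and Stat2. Letters TTCNNNGAA, the core of a STAT dimer site, which reads the same on both strands, stood in windows of 6 of the 32 genes (18.8%, against 7.02% of all windows). These were Bst2, Eif2ak2, Ifit2, Irf1, Psmb8 and Samhd1. A match is a string of letters and not a shown binding site. The windows below were picked after the values were seen, to show 3 genes with repeated matches whose signal differed between the array sets, 1 with a match whose signal did not pass (B2m), and 1 without a match whose signal passed (Ddx58). Each is printed 5′ to 3′ on the strand of its gene, and capitals mark GAAANNGAAA or its reverse complement TTTCNNTTTC, overlapping matches merged.
Isg15: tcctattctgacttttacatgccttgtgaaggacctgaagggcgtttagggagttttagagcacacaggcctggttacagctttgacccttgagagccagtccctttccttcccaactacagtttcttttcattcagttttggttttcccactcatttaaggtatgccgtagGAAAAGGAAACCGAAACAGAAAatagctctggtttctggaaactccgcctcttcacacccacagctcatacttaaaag
Ifit1: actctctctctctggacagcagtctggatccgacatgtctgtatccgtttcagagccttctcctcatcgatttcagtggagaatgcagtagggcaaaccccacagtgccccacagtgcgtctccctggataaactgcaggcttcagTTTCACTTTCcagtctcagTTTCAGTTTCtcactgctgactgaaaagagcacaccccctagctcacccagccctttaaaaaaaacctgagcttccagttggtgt
Bst2: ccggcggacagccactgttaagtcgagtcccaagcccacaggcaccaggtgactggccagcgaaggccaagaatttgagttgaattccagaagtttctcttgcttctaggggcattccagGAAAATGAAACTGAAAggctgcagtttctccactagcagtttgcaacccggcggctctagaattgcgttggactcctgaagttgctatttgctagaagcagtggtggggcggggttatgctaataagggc
B2m: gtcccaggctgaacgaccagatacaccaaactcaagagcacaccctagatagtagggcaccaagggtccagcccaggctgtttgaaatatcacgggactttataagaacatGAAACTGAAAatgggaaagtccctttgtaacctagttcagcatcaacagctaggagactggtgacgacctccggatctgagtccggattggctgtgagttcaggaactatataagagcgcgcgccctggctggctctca
Ddx58: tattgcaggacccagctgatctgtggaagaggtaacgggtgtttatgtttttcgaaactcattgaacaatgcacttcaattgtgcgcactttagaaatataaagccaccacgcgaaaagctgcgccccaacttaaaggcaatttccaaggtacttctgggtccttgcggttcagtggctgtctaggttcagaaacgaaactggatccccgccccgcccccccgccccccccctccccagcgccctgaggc
The Isg15 window is chr4:156200819-156201068 on the minus strand, with 3 overlapping matches 78 to 66 bases upstream of the start. Ifit1 has its window at chr19:34640639-34640888 on the plus strand, with matches 104 and 85 bases upstream, both on the opposite strand. That of Bst2 is chr8:71537473-71537722 (minus strand, matches 130 and 124 bases upstream), that of B2m chr2:122147437-122147686 (plus strand, 1 match 139 bases upstream), and that of Ddx58 chr4:40239826-40240075 (minus strand, no match). Among the genes with a window, 7 of 9 with GAAANNGAAA and 13 of 23 without it passed the comparison described next, with median log2 differences of 1.13 and 0.76.

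Interferon-stimulated genes had higher signals on the second than on the first array of the compounds. With each compound as a block, 24 of the 39 were higher and 0 lower at an adjusted p under 0.05 (limma, Benjamini-Hochberg over all 22206 probe sets), where 11.2% of all probe sets were higher and 9.96% lower. At an unadjusted p under 0.05, 33 were higher and 0 lower (15.9% and 15.1% of all). The difference was above 0 for 37 of the 39 (10584 of 22206 over all), with a median of 0.92 (log2) against -0.02 over all probe sets and a range of -0.31 to 2.17. All 5 second arrays lay above all 5 first arrays for 21 of the genes (9.89% of all probe sets), and the second array was the higher one within every compound for 32 (15.4% of all). Of the 24 that passed, 17 had signals above background on some or all arrays of both sets, 6 were at background on every first array, and Psmb8 was at background on every array. For some of the 17 this held on few first arrays, as in Irf9 (1 of 5) and Xaf1 (2 of 5). Relative to each array's negative control median, a scaling chosen after the values were seen that lowered the median of all probe sets to -0.40 and the share of higher among all calls to 12% against 52.9%, 30 of the 39 were still higher, their median was 0.52 and 21 passed. In RNA from whole cultures, fewer cells of a type and less RNA per cell cannot be told apart, and the part of the lower adipocyte markers in these differences was not tested.

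**Figure D1:**
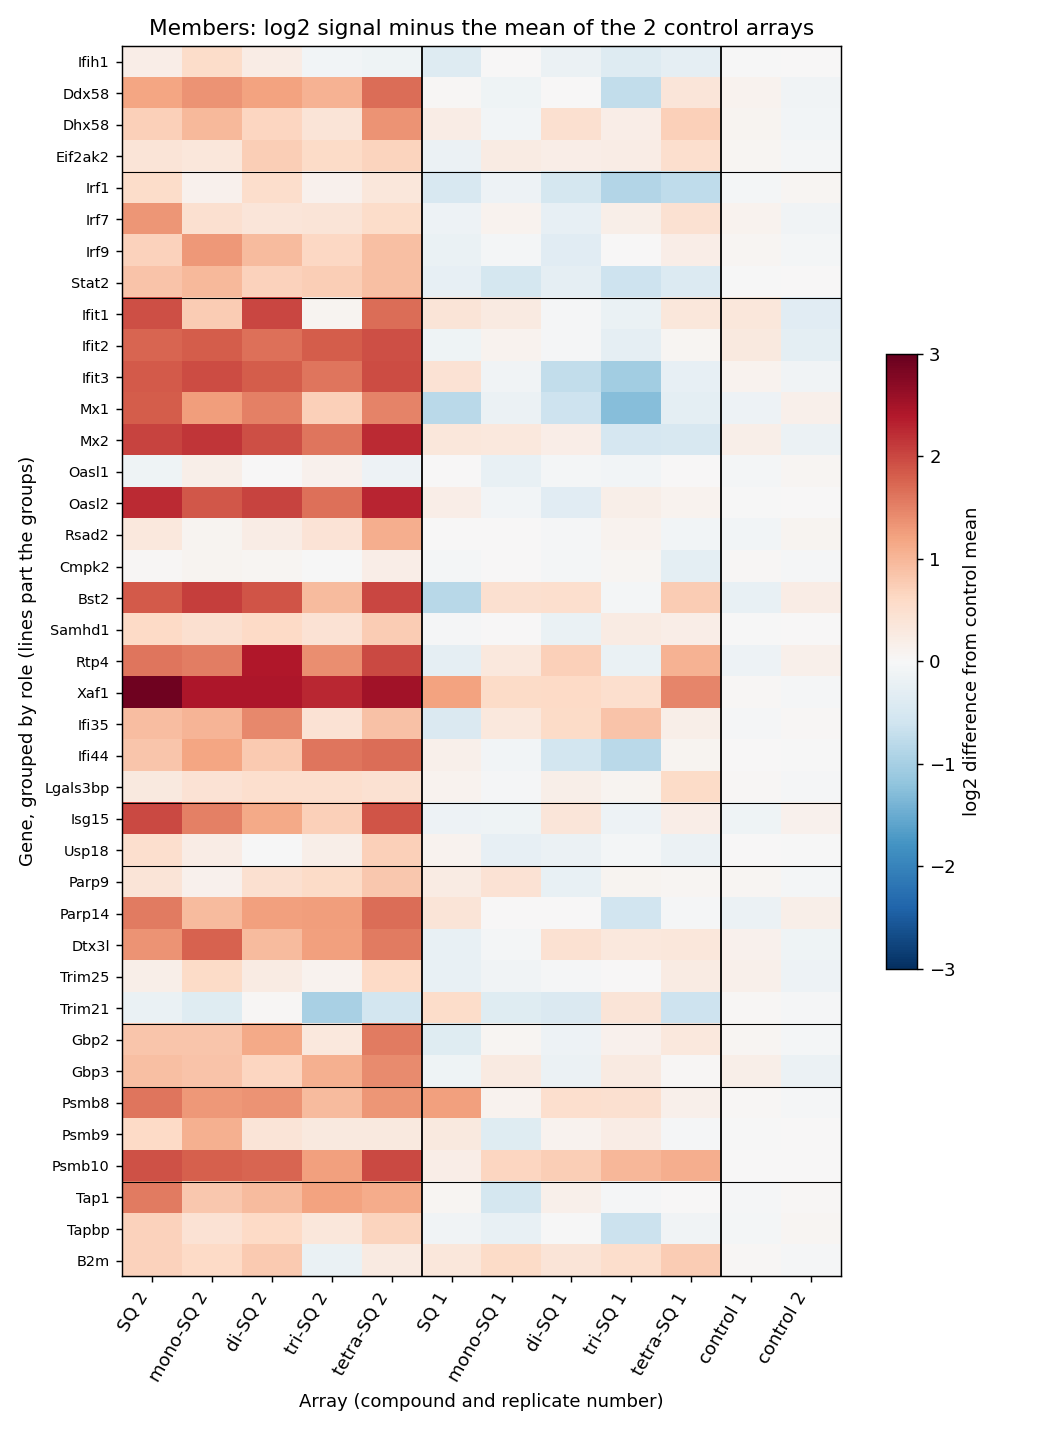
Log2 signal of each of the 39 genes (rows, grouped by role) on each of the 12 arrays (columns) minus the mean of the 2 control arrays, on a colour scale from -3 to 3. The 5 second compound arrays at the left are mostly red, with all of them above both controls for 30 genes, while all first compound arrays lie above both controls for 4 (18.6% and 9.66% of all probe sets).

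Among 4 sensors of foreign nucleic acid, Ddx58 differed most. Ddx58 encodes RIG-I, which binds viral RNA ends in the cytosol and lies on chromosome 4 (40203777 to 40239825, GRCm38). Its log2 signals were 10.09, 10.24, 10.10, 9.95 and 10.57 on second compound arrays, 8.94, 8.76, 8.91, 8.15 and 9.27 on first compound arrays and 9.0 and 8.80 on controls. The lowest second array stood above the highest first array and both controls, and the difference between second and first arrays was 1.38 ± 0.15 (log2 ± SE, limma adjusted p = 8.57e-05). Dhx58, the related helicase LGP2, was not above background on any array, at 5.79, 6.05, 5.72, 5.46 and 6.41 on second arrays, 5.30, 4.99, 5.56, 5.28 and 5.79 on first arrays and 5.16 and 4.98 on controls. Its second array was higher in every compound but the sets overlapped (adjusted p = 0.0575). Ifih1, the sensor MDA5, and the RNA-activated kinase Eif2ak2 had differences of 0.39 ± 0.14 and 0.34 ± 0.14, which did not pass (0.0775 and 0.129).

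The transcription factors of the response passed as higher in 3 of 4 cases, beside 11.2% of all probe sets. Stat2 (chromosome 10, 128270498 to 128292853), which works in a complex with IRF9, had log2 signals of 10.40, 10.50, 10.23, 10.28 and 10.44 on second compound arrays, 9.28, 9.0, 9.26, 8.91 and 9.13 on first compound arrays and 9.52 and 9.55 on controls. These 3 sets did not overlap: every first array lay below both controls and every second array above them, with a second against first difference of 1.25 ± 0.14 (adjusted p = 0.000121). For Irf9, the DNA-binding subunit of the same complex, the signals were 6.62, 7.23, 6.89, 6.56 and 6.84 on second arrays, 5.75, 5.88, 5.59, 5.95 and 6.14 on first arrays and 6.0 and 5.88 on controls. First arrays of Irf9 were above background in 1 of 5 cases and controls in 0 of 2, so the fitted difference (0.97 ± 0.16, 0.00145) is not a measured fold; with signals at background set to the negative control median it is at least 0.72. Irf1, a factor that type II interferon induces early, differed by 0.90 ± 0.16 (0.00223) without overlap. Irf7, which amplifies interferon production, was at background throughout, with 4.80, 3.95, 3.84, 3.87 and 4.02 on second arrays, 3.32, 3.58, 3.22, 3.64 and 3.94 on first arrays and 3.58 and 3.37 on controls. The SQ array was the high one among its second arrays, and the comparison did not pass (0.0811).

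Antiviral effectors made up the biggest group, with 11 of 16 passing as higher (11.2% of all probe sets) and a median difference of 1.46. Ifit3 had the largest fitted difference of the group, followed by Mx2 and Oasl2, whose order turns when signals at background are set to the negative control median (1.90 for Mx2 and 1.96 for Oasl2). Ifit3 is a tetratricopeptide protein that works with IFIT1 on viral RNA and sits between Ifit2 and Ifit1 on chromosome 19 (34583119 to 34588982). Its signals were 10.68, 10.80, 10.66, 10.44 and 10.80 on second arrays, 9.29, 8.75, 8.10, 7.80 and 8.60 on first arrays and 8.94 and 8.75 on controls. Second arrays lay close to each other, whereas first arrays spread from 7.80 in tri-SQ to 9.29 in SQ, on both sides of the controls. The difference was 2.17 ± 0.19 (adjusted p = 2e-05). Mx2, a dynamin-like GTPase on chromosome 16 (97536081 to 97560901), read 8.15, 8.28, 8.06, 7.74 and 8.37 on second arrays, 6.47, 6.44, 6.34, 5.63 and 5.65 on first arrays and 6.30 and 5.96 on controls. All second arrays of Mx2 stood above background, 3 of 5 first arrays and 1 of 2 controls did, and the fitted difference was 2.01 ± 0.18 (1.98e-05).

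Among the other effectors, Oasl2, Ifit2, Bst2 and Xaf1 also stood apart without overlap. Oasl2, a 2′-5′ oligoadenylate synthetase-like protein, ranged over 8.33 to 8.96 on second arrays, 6.33 to 6.89 on first arrays and had 6.66 and 6.70 on controls, a second against first difference of 2.00 ± 0.16 (1.07e-05). Ifit2, of the same family as Ifit3, ranged over 8.83 to 9.10 on second arrays, 6.90 to 7.29 on first arrays and had 7.47 and 6.88 on controls (1.84 ± 0.14, 7.03e-06). The controls of Ifit2 lay farther apart than those of Oasl2. Bst2, the tetherin that holds budding virions at the cell surface, ranged over 7.29 to 8.42 on second arrays, 5.51 to 7.10 on first arrays and had 6.13 and 6.56 on controls (1.58 ± 0.22, 0.000499), with 1 of 5 first arrays and 1 of 2 controls at background. The pro-apoptotic factor Xaf1 ranged over 7.32 to 7.97 on second arrays, 5.55 to 6.53 on first arrays and had 5.08 and 5.03 on controls (fitted difference 1.64 ± 0.16, 4.33e-05). Both controls and 3 of 5 first arrays of Xaf1 were at background, and with these set to the negative control median the second against first difference is at least 1.38. For Mx1, Rtp4, Ifi44 and Ifit1 every first array was at background, so at most a lower bound can be given. No bound is given where second arrays were at background too. Mx1 was at least 2.80-fold higher on second arrays (7.58 ± 0.41) than on first arrays (5.58 ± 0.44, SD, n = 5 each; adjusted p = 2.34e-05, limma), and all 5 of its second arrays were above background. Ifi44 passed with a limma adjusted p of 0.000764 (6.75 ± 0.42 on second arrays, 4 of 5 above background, and 5.30 ± 0.42 on first arrays). Rtp4 passed with 0.000127 (6.19 ± 0.41 on second arrays, 1 of 5 above background, and 4.72 ± 0.57 on first arrays). Ifit1 passed with 0.00685, and its second arrays ranged from 4.55 in tri-SQ to 6.47 in di-SQ, 1 of 5 above background. Its first arrays reached 4.87 in SQ, so the sets overlapped. The dNTP hydrolase Samhd1 had the lowest difference of those that passed, 0.53 ± 0.14 (0.0241), and no longer passed when any 1 array of SQ, mono-SQ, di-SQ or tetra-SQ was left out (lowest difference 0.47, without either di-SQ array). The 5 effectors that did not pass were Oasl1, Rsad2 and Cmpk2, all at background on every array, and Ifi35 (0.64 ± 0.22, adjusted p = 0.0698) and Lgals3bp (0.26 ± 0.15, 0.263). Oasl1 lies beside Oasl2 on chromosome 5, and Rsad2 beside Cmpk2 on chromosome 12.

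In the ISG15 system, Isg15 passed and Usp18 did not. Isg15 encodes a ubiquitin-like protein that is joined to other proteins, and Usp18 the protease that removes it and also dampens the receptor. Isg15 signals were 6.79, 6.31, 5.95, 5.51 and 6.70 on second arrays, 4.66, 4.68, 5.17, 4.66 and 5.01 on first arrays and 4.67 and 4.94 on controls. Second arrays lay above all others, lowest in tri-SQ, but only those of SQ and tetra-SQ were above background, so no fold is given. Means were 6.25 ± 0.53 on second and 4.84 ± 0.24 on first arrays (SD, n = 5 each, limma adjusted p = 0.000646). Usp18 was at background on all arrays, with 6.11, 5.81, 5.58, 5.77 and 6.31 on second arrays, 5.71, 5.34, 5.41, 5.54 and 5.42 on first arrays and 5.60 and 5.59 on controls, and overlapped between the sets (0.0732).

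Of the PARP, DTX3L and TRIM genes, 2 of 5 passed as higher, beside 11.2% of all probe sets. Parp14, an ADP-ribosyltransferase, had 8.20, 7.58, 7.87, 7.90 and 8.30 on second arrays, 7.03, 6.65, 6.64, 6.05 and 6.60 on first arrays and 6.47 and 6.80 on controls, a difference of 1.38 ± 0.17 (adjusted p = 0.000194). The ubiquitin ligase gene Dtx3l had 8.23, 8.67, 7.84, 8.11 and 8.44 on second arrays, 6.67, 6.82, 7.35, 7.21 and 7.23 on first arrays and 7.01 and 6.77 on controls, a difference of 1.20 ± 0.20 (0.00134). Neither gene overlapped between second arrays and the other 7. Parp9, whose product pairs with DTX3L, overlapped between the sets (0.36 ± 0.18, 0.211); its annotated span overlaps the start of Dtx3l on chromosome 16, and probe positions were not used here. Trim25, the ligase that activates RIG-I, had 0.36 ± 0.14 (0.109), and Trim21, an antibody receptor in the cytosol, was at background on every array with the second array lower in tri-SQ (4.15 against 5.50) and SQ (4.92 against 5.66).

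Both guanylate-binding proteins, GTPases that attack the vacuoles of intracellular parasites, passed as higher, beside 11.2% of all probe sets. Gbp2 read 7.37, 7.36, 7.68, 6.84 and 8.09 on second arrays, 6.18, 6.60, 6.39, 6.66 and 6.84 on first arrays and 6.59 and 6.48 on controls. The tri-SQ second array equalled the tetra-SQ first array, and the difference was 0.93 ± 0.19 (adjusted p = 0.00418). Centred on the negative controls, the difference of Gbp2 was 0.52 and no longer passed (0.0502). Gbp3 read 6.68, 6.64, 6.42, 6.85 and 7.20 on second arrays, 5.66, 6.06, 5.61, 6.06 and 5.82 on first arrays and 5.95 and 5.62 on controls. Every first array and both controls of Gbp3 were at background, and 4 of 5 second arrays were above it. The comparison passed (adjusted p = 0.00159), and no fold is given.

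Immunoproteasome subunits replace the standard catalytic subunits and shift cleavage towards peptides that class I molecules can hold. Psmb10 (chromosome 8, 105935728 to 105938392) had signals of 7.45, 7.32, 7.27, 6.77 and 7.51 on second compound arrays, 5.74, 6.17, 6.26, 6.52 and 6.62 on first compound arrays and 5.53 and 5.53 on controls. It stepped through the 3 sets without overlap, both controls being at background, and second arrays exceeded first arrays by 1.00 ± 0.20 (adjusted p = 0.00386). Psmb8 was at background on every array, with 6.09, 5.77, 5.82, 5.42 and 5.81 on second arrays, 5.70, 4.59, 4.98, 4.95 and 4.64 on first arrays and 4.51 and 4.45 on controls. The first array of SQ lay within the range of the second arrays, and the comparison passed (0.00523) on signals for which no fold is given; centred on the negative controls it no longer passed (0.135). Psmb9, at background too, did not pass (0.125).

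Peptide loading genes passed while the class I light chain did not. Tap1, a subunit of the transporter that moves peptides into the endoplasmic reticulum, had 8.46, 7.72, 7.87, 8.12 and 8.02 on second arrays, 6.98, 6.38, 7.06, 6.88 and 6.93 on first arrays and 6.88 and 6.94 on controls, and differed by 1.19 ± 0.15 (adjusted p = 0.000217). Tap1 and Psmb9 start next to each other on chromosome 17 and run in opposite directions. Tapbp, the tapasin that bridges transporter and class I, had 13.51, 13.25, 13.42, 13.15 and 13.48 on second arrays, 12.71, 12.60, 12.80, 12.16 and 12.72 on first arrays and 12.75 and 12.88 on controls. Its second arrays lay above all others, while first arrays and controls overlapped, and the second against first difference was 0.76 ± 0.14 (0.00222). B2m, the light chain of all class I molecules on chromosome 2, read 17.84, 17.76, 17.94, 16.96 and 17.44 on second arrays, 17.50, 17.73, 17.54, 17.68 and 17.92 on first arrays and 17.19 and 17.13 on controls. The tri-SQ second array was the only compound array of B2m below the controls, and the difference was -0.09 ± 0.19 with a 95% interval of -0.51 to 0.34 (0.822).

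**Figure D2:**
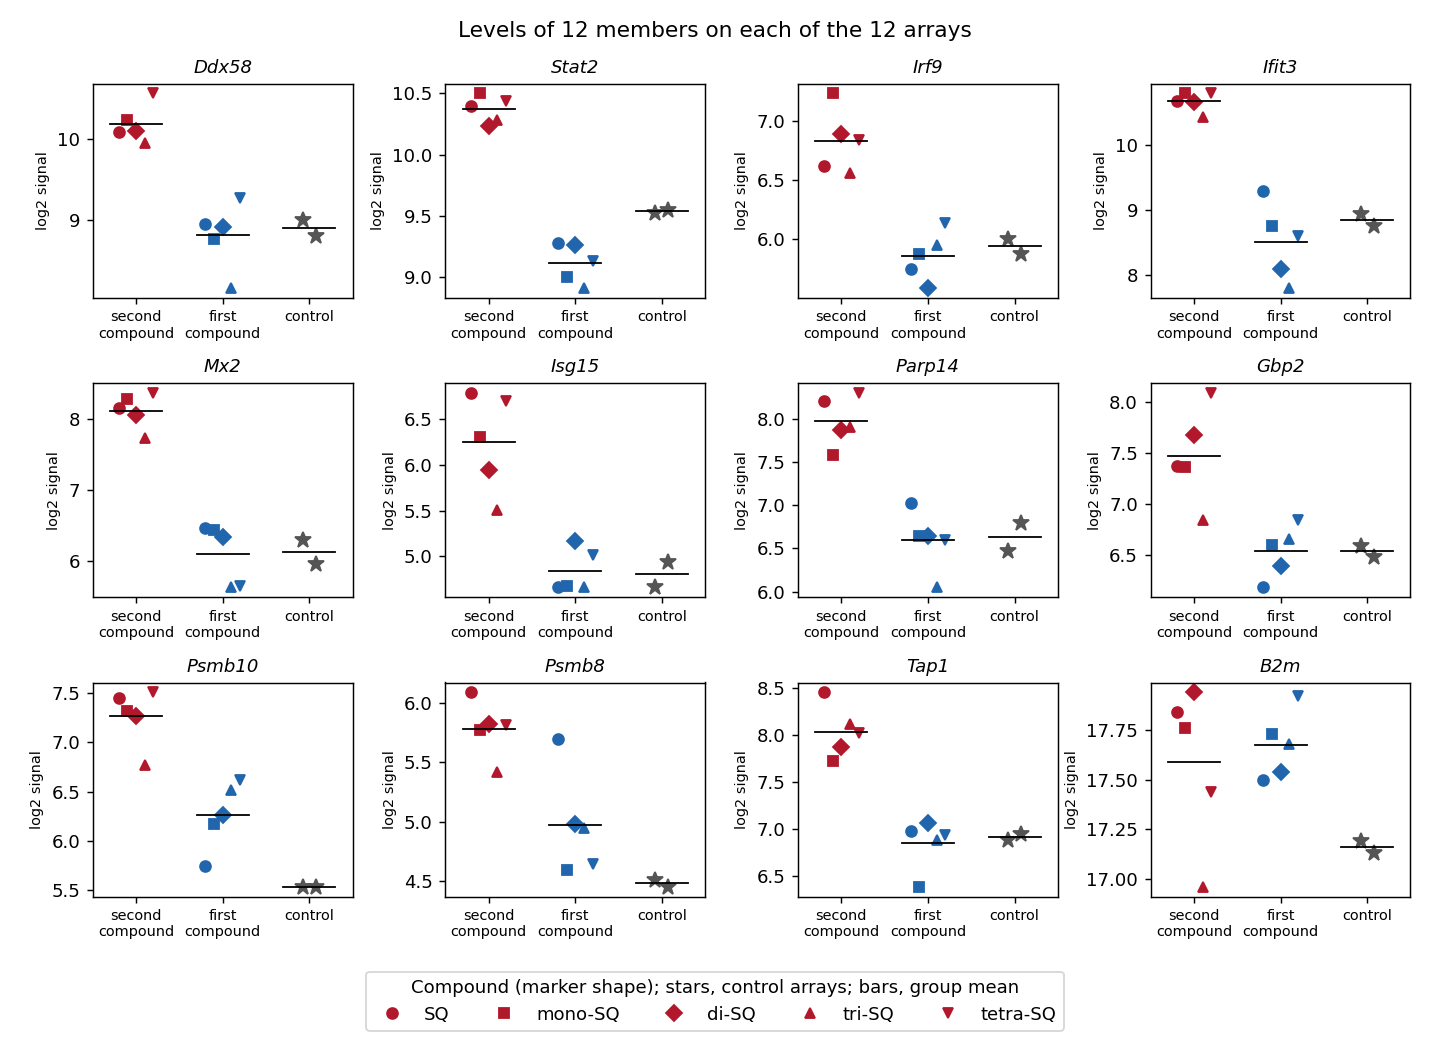
Log2 signal of 12 genes on each array: second compound arrays (red), first compound arrays (blue) and controls (grey stars), with marker shape for the compound and a bar at each mean. For Stat2 the second arrays lie between 10.23 and 10.50 and the first between 8.91 and 9.28, whereas for B2m the sets overlap.

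**Figure D3:**
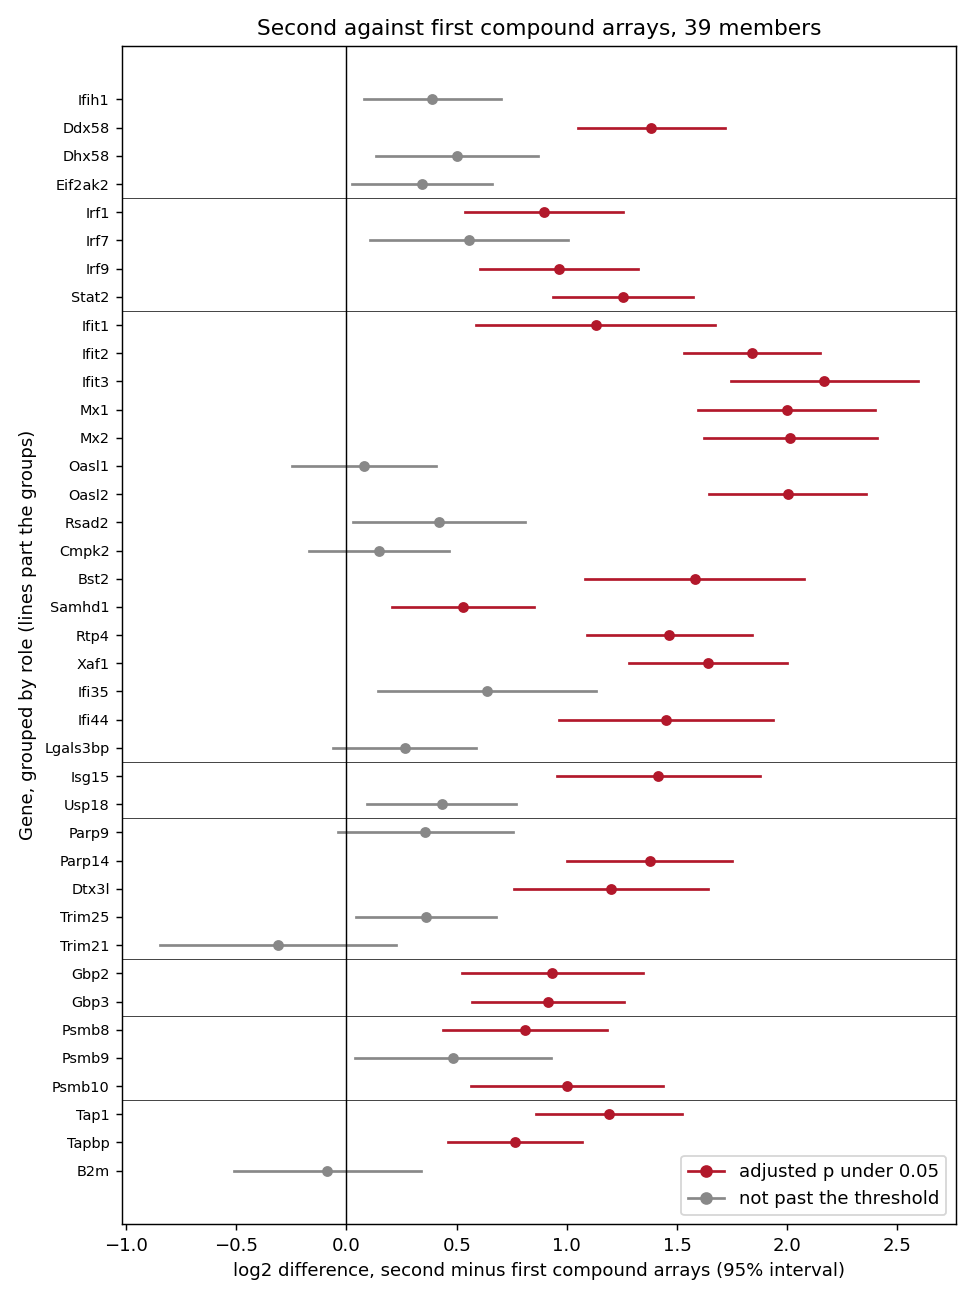
Difference between second and first compound arrays (log2, point) with its 95% interval for the 39 genes, ordered by role from top to bottom, in red where the adjusted p was under 0.05. The 24 red genes all lie to the right of 0, from 0.53 (Samhd1) to 2.17 (Ifit3); where a set of arrays was at background, as for Isg15 and Psmb8, the size is not a measured fold.

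Set against the controls, second and first compound arrays gave different pictures. In these 2 comparisons the 5 compounds stood in as replicates, so the spread holds differences between compounds. The p-values do not come from repeats of 1 treatment. On second compound arrays 24 of the 39 genes passed as higher than on controls and 0 as lower (9.69% and 9.28% of all probe sets). Of the 39, 38 lay above control (10852 of 22206 over all), with a median difference of 0.93. At an unadjusted p under 0.05, 30 were higher and 0 lower (15.2% and 15.4% of all), and the second arrays are those of the comparison with the first. All 5 second arrays exceeded both controls for 30 genes (18.6% of all probe sets). Oasl2 (2.01 ± 0.20, adjusted p = 3.02e-06), Mx2 (1.99 ± 0.26, 3.55e-05), Ifit3 (1.83 ± 0.29, 0.000275) and Ddx58 (1.29 ± 0.25, 0.00136) were among them. For 17 genes both controls were at background, and 8 of these had second arrays above it, among them Xaf1 (at least 2.72-fold higher, adjusted p = 3.17e-06), Psmb10 (at least 2.36-fold, 6.46e-05) and Irf9 (at least 1.56-fold, 0.00495). Tapbp and B2m did not pass (0.55 ± 0.19 and 0.43 ± 0.23, adjusted p = 0.0565 and 0.228). The number that passed was 16 when either control array was left out. Scaled to the negative control medians, which lowered the median of all probe sets to -0.31 and the share of higher among all calls to 17.8% against 51.1%, 18 passed.

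On first compound arrays 0 of the 39 genes passed in either direction (0% of all probe sets higher, 0.0045% lower), with 20 above and 19 below control and a median of 0.00. At an unadjusted p under 0.05, 3 were higher (6.62% of all probe sets) and 3 lower (5.61%), and these 6 are named after their values were seen. Psmb10 averaged 6.26 ± 0.34 on first arrays (n = 5) and 5.53 ± 0.00 on controls (n = 2), without overlap, with a limma adjusted p of 0.247. The controls of Psmb10 were at background and 4 of its 5 first arrays were above it, so no fold is given. Xaf1 averaged 5.92 ± 0.44 on first arrays and 5.05 ± 0.04 on controls with the controls at background, and B2m 17.67 ± 0.17 and 17.16 ± 0.04. Below the controls were Mx1 (5.58 ± 0.44 against 6.22 ± 0.23), Irf1 (10.06 ± 0.28 against 10.62 ± 0.08) and Stat2 (9.12 ± 0.16 against 9.54 ± 0.02). For these 3 and for Psmb10, Psmb8, Xaf1 and B2m all 5 first arrays lay on 1 side of both controls, as they did for 9.66% (above) and 10.7% (below) of all probe sets.

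Compound by compound, the median difference between array numbers was largest in tetra-SQ and SQ and smallest in tri-SQ; these are single differences with no test. The median of second minus first over the 39 genes was 1.03 in SQ, 0.93 in mono-SQ, 0.81 in di-SQ, 0.49 in tri-SQ and 1.04 in tetra-SQ, and -0.05 in control. A difference of more than 1 log2 unit was found for 21 genes in SQ (53.8%, against 6.86% of all probe sets), 19 in mono-SQ (48.7% against 4.62%), 16 in di-SQ (41% against 5.49%), 12 in tri-SQ (30.8% against 7.16%) and 20 in tetra-SQ (51.3% against 4.85%), and for 0 in control (0.126% of all). Ifit3, above background on all arrays, had a shift of 2.05 in mono-SQ, 2.56 in di-SQ and 2.64 in tri-SQ. Tested as a difference between the compounds' mean shift and that of the control pair, 4 of the 39 genes passed, all higher (0.748% of all probe sets higher and 1.43% lower), and 18 did so at an unadjusted p under 0.05 (5.72%). The 4 that passed were Ifit2 (2.43 ± 0.34, limma adjusted p = 0.00445), Ifit3 (2.36 ± 0.47, 0.0301), Mx2 (2.35 ± 0.43, 0.0216) and Oasl2 (1.96 ± 0.39, 0.0322). In this test the control enters with a single pair, and without either mono-SQ array only 1 gene passed.

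**Figure D4:**
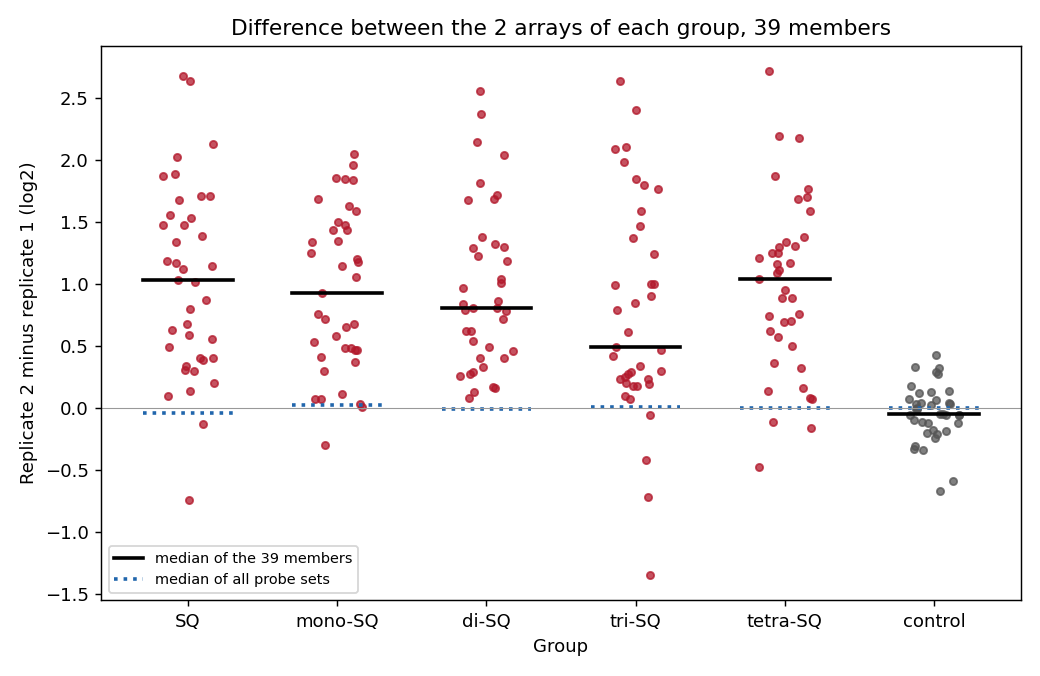
Log2 signal on array 2 minus array 1 for each of the 39 genes (points) in the 5 compounds (red) and the control (grey), with the median of the 39 (black bar) and of all probe sets (blue dots). The medians of the 39 lie between 0.49 (tri-SQ) and 1.04 (tetra-SQ) in the compounds and at -0.05 in control, with those of all probe sets near 0.

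Taking both arrays of a compound as its replicates, the comparison with control asks what each compound does to these genes, and the 5 comparisons share the same 2 control arrays. In limma 0 of the 39 passed for SQ, mono-, di-, tri- or tetra-SQ (0% of all probe sets in each, higher or lower), with smallest adjusted p of 0.92, 0.837, 0.886, 0.794 and 0.573 among the 39. Between 33 and 35 of the 39 genes were above control in each, with medians of 0.48, 0.48, 0.47, 0.29 and 0.58. Over all probe sets 10581 (tetra-SQ) to 11309 (tri-SQ) of 22206 were above control. In simulated data the SQ comparison found 18% of genes changed 2-fold and 0% of those changed 1.5-fold. Changes that small would thus mostly be missed, and 0 calls do not show that the genes were unchanged. The simulation drew independent noise for randomly picked genes, without the shared difference between array numbers. Its rates need not hold for the 39, where larger changes could be missed too. The largest difference of the 39 in SQ, 2.06 (log2), did not pass, and that of Ifit3 had a standard error of 1.17. At an unadjusted p under 0.05, SQ had 2 genes higher (2.48% of all probe sets), Xaf1 and Psmb8, and tetra-SQ had 2 (3.8%), Dhx58 and Psmb10, while mono-, di- and tri-SQ had 0 (2.83%, 2.58% and 3.6%). These 4 were named after their values were seen, and in each of them both controls were at background. Both arrays of the compound lay above both controls for 16 genes in SQ (19.9% of all probe sets), 12 in mono-SQ (22.6%), 15 in di-SQ (21.3%), 16 in tri-SQ (21.7%) and 21 in tetra-SQ (23.4%). The authors' deposited table gave 0 of the 39 at a false discovery rate under 0.05 for each compound, with a smallest rate of 0.5721 in tetra-SQ, and its largest fold was that of Xaf1 in SQ (4.18). With the first arrays alone the medians against control were 0.00, 0.00, -0.03, 0.01 and 0.10, and with the second arrays alone 0.87, 0.95, 0.78, 0.57 and 1.11.

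The derivatives, which carry ethylene glycol units on squalene, were set against SQ at the same dose and time in 4 pairs. The limma test called 0 of the 39 genes in any pair (0% of all probe sets), and 0 had an unadjusted p under 0.05, against 2.34% of all probe sets for mono-SQ, 2.34% for di-SQ, 4.98% for tri-SQ and 3.69% for tetra-SQ. Median differences were -0.02 for mono-SQ, -0.06 for di-SQ, -0.18 for tri-SQ and 0.10 for tetra-SQ. The intervals were wide: for Ddx58 the tri-SQ minus SQ difference was -0.46 with a 95% interval of -2.16 to 1.23, and that of tetra-SQ minus SQ was 0.40 with -1.29 to 2.10. B2m was bounded more tightly, at -0.35 (-1.02 to 0.32) for tri-SQ and 0.01 (-0.66 to 0.68) for tetra-SQ. Tri-SQ against the mean of the other 4 compounds gave 0 genes in limma as well (0 at an unadjusted p under 0.05, against 6.2% of all probe sets). Of the 39, 29 were lower (10697 of 22206 over all), with a median of -0.12, and the B2m difference was -0.39 (-0.92 to 0.14). These intervals hold the spread between first and second arrays and do not show that the compounds act alike.

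Upstream of the 39 genes, most interferon genes themselves gave little signal. Of 13 interferon genes 11 were at background on every array, Ifnb1 among them with 4.70 ± 0.19 on second arrays, 4.27 ± 0.40 on first arrays (SD, n = 5 each) and 4.62 ± 0.13 on controls (n = 2), and 0 of 13 passed between second and first arrays (limma). Ifna5 was above background on all 12 arrays (7.34 ± 0.32 on second arrays, 7.49 ± 0.40 on first arrays, 7.57 ± 0.08 on controls) and Ifng on 1. At an unadjusted p under 0.05, 2 of the 13 were higher and 2 lower, beside 15.9% and 15.1% of all probe sets, which is near the rate of all. Of 20 receptor, kinase and regulator genes 4 were higher and 2 lower, beside 11.2% and 9.96% of all probe sets. The largest of these were the feedback inhibitor Socs3, at background on first arrays and controls (6.36 ± 0.14 on second arrays, 4.89 ± 0.21 on first arrays, 5.34 ± 0.08 on controls; adjusted p = 3.5e-05), and the receptor kinases Tyk2 (0.93 ± 0.16, 0.00147) and Jak2 (-0.75 ± 0.15, 0.00444). Ifnar1, a chain of the type I receptor, had 11.62 ± 0.21 on second arrays, 11.18 ± 0.15 on first arrays and 11.34 ± 0.08 on controls (0.0717).

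The other lists of the pathway are read beside the same shares of all probe sets, 11.2% higher and 9.96% lower. Among 15 further sensors and adaptors 8 were higher and 0 lower between second and first arrays, and among 68 further interferon-stimulated genes 24 were higher and 5 lower, with a median of 0.34; the 5 lower are below the share of all. The largest of the 68 were Isg20, an RNA exonuclease, which fell (6.38 ± 0.77 on second arrays, 9.08 ± 0.42 on first arrays, 8.16 ± 0.09 on controls; 6.38e-05), the NAD synthesis enzyme Nampt, which also fell (-2.35 ± 0.14, 1.14e-06), and Ifit3b, which rose (2.11 ± 0.14, 2.7e-06). Ifit3b is a close copy of Ifit3 and the arrays may not part their transcripts. In the list of 15 other antigen presentation genes 7 were higher and 1 lower. Tap2, the other subunit of the peptide transporter, rose by 0.93 ± 0.14 (0.000826), the loading complex disulfide isomerase Pdia3 by 0.90 ± 0.14 (0.000963) and the class I heavy chain H2-K1 by 0.61 ± 0.16 (0.021), while the proteasome activator Psme3 fell (-0.83 ± 0.15, 0.00223). Of 13 constitutive proteasome subunits only Psma1 passed, and it was lower (-2.02 ± 0.23, 0.000135); on first arrays all 13 were above control with a median of 0.66, none past the threshold (9 higher at an unadjusted p under 0.05, beside 6.62% of all probe sets, of which 10733 of 22206 were above control).

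Markers of other cells were read on the same arrays. All 6 MHC class II genes, 11 of 13 macrophage and leukocyte markers (Ptprc, Adgre1 and Csf1r among them) and all 5 endothelial markers were at background on every array. Cd68 was above background on all 12 arrays (6.80 ± 0.17 on second arrays, 6.65 ± 0.39 on first arrays, 6.94 ± 0.23 on controls) and Laptm5 on 1. Between second and first arrays 0 of each list passed (limma), beside 11.2% of all probe sets higher and 9.96% lower. At an unadjusted p under 0.05, 2 class II genes were lower, with 0 leukocyte and 0 endothelial markers, beside 15.9% of all higher and 15.1% lower. The leukocyte list averaged 4.47 to 4.70 on second arrays, 4.43 to 4.64 on first arrays and 4.53 to 4.54 on controls. Against control, 1 of its 13 genes passed as higher on second arrays (limma adjusted p = 0.0464), near the share of all probe sets (9.69%). Adipocyte markers passed as lower on second arrays in 10 of 10 cases (median -3.46), beside 9.96% of all probe sets. Of 7 preadipocyte and fibroblast markers 4 passed as higher (11.2% of all), Dlk1 most, by 1.82 ± 0.18 (limma adjusted p = 4.53e-05). Ly6a (11.20 on second arrays, 11.42 on first arrays) and Cd34 (4.36 and 4.67, at background) were on the lower side and did not pass. On first compound arrays the adipocyte list (15.40 to 15.73) spanned the controls (15.44 to 15.47), and any link of these markers with the 39 genes was not tested.

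**Figure D5:**
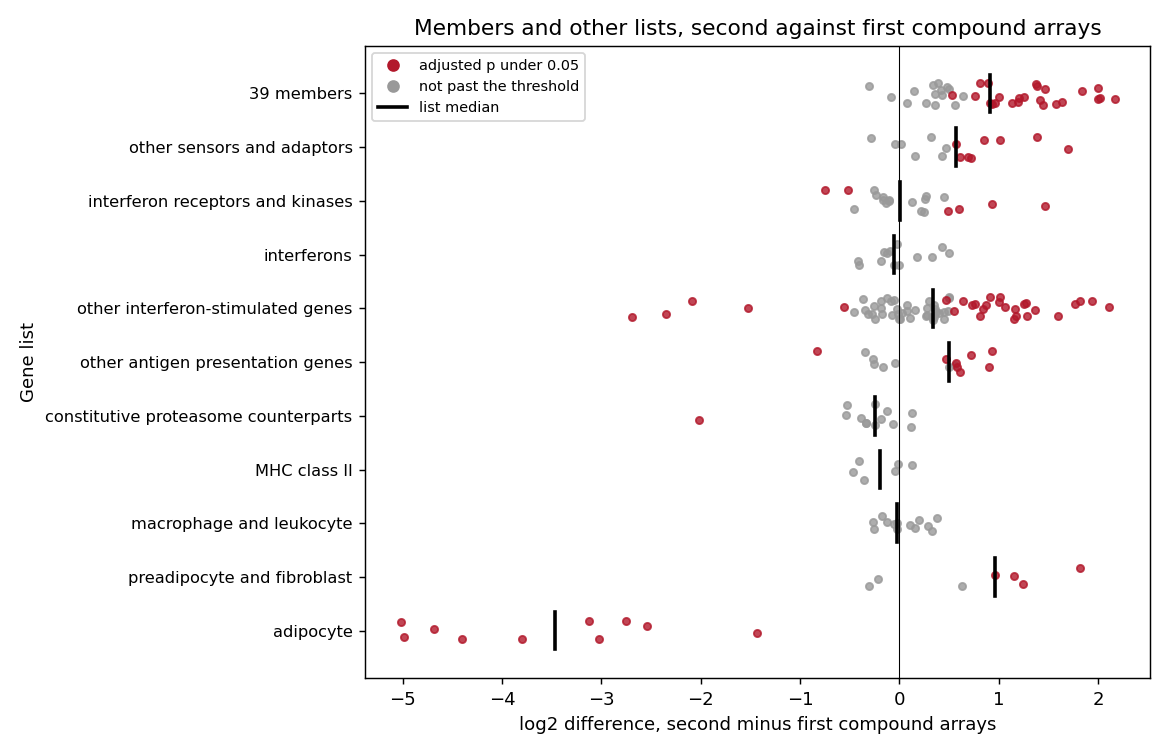
Difference between second and first compound arrays (log2, points) for the 39 genes and for 10 other lists (endothelial markers are not drawn), red where the adjusted p was under 0.05, with the list median as a black bar. The 39 genes have a median of 0.92, the other interferon-stimulated genes 0.34, interferons -0.05, macrophage and leukocyte markers -0.02 and adipocyte markers -3.46.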

How the data were processed

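RNA was read on 12 Clariom S mouse arrays in 6 groups of 2. Per the series' design text, the authors summarised the scans with SST-RMA in Transcriptome Analysis Console 4.0.1, and the deposited signal sheet holds log2 values per probe set. The series' value table, also deposited on a log2 scale, gave the 5222 negative control probe sets; its processing is not given in the sources used here, and it differed from the signal sheet by a median of about 0.08 on each array. The authors' deposited tables of fold change (a signed score, negative when lower), p-value and false discovery rate for each compound against control were read for comparison, and their test is not given in the sources used here.

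Tests were run on the signal sheet as deposited with limma 3.58.1 in R 4.3.3 (lmFit and eBayes), over all 22206 probe sets with Benjamini-Hochberg adjustment and a threshold of 0.05. A group of 2 arrays sets the precision, and array signals carry no count depth. Probe sets with several symbols were tested and not named. Compounds were compared with control and with SQ without a block, and second with first compound arrays with the compound as a block. Second or first compound arrays were set against control without a block, the 5 compounds standing in as replicates. As a check of pairing, deviations of same-numbered arrays from their group means correlated at 0.48 to 0.719 between compounds (10 pairs) and at -0.000737 to 0.00244 between a compound and control (5 pairs). The numbers thus pair compound arrays and not controls.

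The 39 genes and all lists were chosen with earlier results of these data known. Array values are printed for the genes with the largest and second largest second against first difference in each role and for Isg15, Irf7, Stat2, Psmb8 and B2m; from the other lists, up to 3 called genes with the largest differences and Ifnb1, Ifnar1, Tap2 and H2-K1 are given. Some genes of the lists are not reported here. Any other gene was named after its values were seen. Promoters come from RefSeq GRCm38.p6; Dhx58, Mx1, Mx2, Parp14, Parp9, Rtp4 and Usp18 were not matched. On simulated data (50 genes per size of change among 22206), SQ against control recovered 62% of 4-fold and 80% of 8-fold changes. Smaller changes were mostly missed there, with 18% found at 2-fold and 0% at 1.5-fold. Second against first arrays recovered 54% of 2-fold and 100% of 4-fold changes, but only 10% at 1.5-fold. Both simulations drew independent noise for randomly picked genes, so their rates need not hold for the 39 genes. Alternatives were the value table, quantile normalization, median centring on each array, a filter on low signals, an eBayes trend, the replicate block, leaving out each array and, chosen after the data were seen, centring on the negative controls. Figures were drawn with matplotlib 3.10.9 in Python 3.11.15.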

Additional observations from a re-analysis of the deposited data

Results flagged for a closer look

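On 3 occasions 1 array stood far from the other 4 of its set, among 78 such sets examined; chance marks about 1 set in 20. Irf7 had a log2 signal of 4.80 on the second SQ array, against 3.84 to 4.02 on the other second compound arrays, all at background. Bst2 had 7.29 on the second tri-SQ array, against 8.19 to 8.42 on the other second arrays. Tap1 had 6.38 on the first mono-SQ array, against 6.88 to 7.06 on the other first arrays.

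The difference between array numbers itself differed between the compounds and control for Ifit2 (by 2.43 on the log2 scale), Ifit3 (2.36), Mx2 (2.35) and Oasl2 (1.96), as tested above with the control as a single pair.

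The negative control probe sets were not tested themselves but set the background level and the centring on the negative controls. Their median log2 signal was 6.57 on second compound arrays, 6.18 on first compound arrays and 6.27 on controls.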

How the results depend on the processing

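Of the 24 genes higher on second than on first compound arrays, 21 passed under every alternative that tested them (the low-signal filter left out Ifit1 and Rtp4), and the counts lay between 21 and 27 (23 to 26 with 1 array left out). Samhd1 was lost in 9 alternatives, and Gbp2 and Psmb8 after centring on the negative controls, which also turned the sign of 7 genes that had not passed: Ifih1 (-0.0145), Eif2ak2 (-0.0405), Oasl1 (-0.27), Cmpk2 (-0.24), Lgals3bp (-0.14), Parp9 (-0.0176) and Trim25 (-0.0242). With 1 array left out, second against first differences lay between -0.0025 and 0.14 for Oasl1 and between -0.2075 and 0.0725 for B2m. Second arrays against control gave 16 to 26. The test of the shift against that of control gave 8 genes with the filter on low signals, which tests fewer probe sets, and 1 to 5 with 1 array left out; it could not be fitted without either control array. The median of the 39 genes on first arrays against control, 0.00, became -0.0109 with quantile normalization, -0.001 with median centring and -0.0125 with the low-signal filter, and lay between -0.034 and 0.022 with 1 array left out. Centring on the negative controls moved it most, to 0.086, with 27 of the 39 above control and 0 passing, beside a median of 0.072 over all probe sets. Against control, the medians of SQ, di-SQ and tri-SQ turned to -0.041, -0.06 and -0.13 with a replicate block in the compounds only, which takes the controls as first arrays, and the causes of these changes were not tested. With 1 array left out, that of SQ lay between 0 and 0.87, that of di-SQ between -0.03 and 0.78, tri-SQ B2m between -0.20 and 0.52, and the median of tri-SQ against the other compounds between -0.42 and 0.17. The replicate block changed no member's call between compounds. Of the 39 genes, 12 were at background on some arrays and 9 on all, and 2 arrays a group limit the rest.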

Other observations

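Further genes of the response, named here after their values were seen, differed between second and first compound arrays as well (limma, adjusted over all probe sets). Tmem173, which encodes the DNA-sensing adaptor STING, had a mean log2 signal of 8.68 ± 0.16 on second arrays and 6.98 ± 0.58 on first arrays (SD, n = 5 each; adjusted p = 8.62e-05), with 7.12 on controls. The RNA editing enzyme Adar was higher by 1.02 ± 0.18 (SE, 0.00242). The nuclear body protein Pml was higher by 1.77 ± 0.15 and the DNA-binding Ifi203 by 1.94 ± 0.23. Irgm1 and Irgm2, immunity-related GTPases, were at background on every first array and had mean signals of 7.11 and 6.56 on second arrays.

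Not every gene of the lists moved that way. Cd274, the immune checkpoint ligand PD-L1, was lower, with a mean log2 signal of 7.10 ± 0.39 on second arrays, 9.19 ± 0.26 on first arrays (n = 5 each) and 9.03 on controls, above background on all 12 arrays. Its difference was -2.08 ± 0.18 (SE, limma adjusted p = 2e-05), next to the lower Isg20 and Nampt.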
